A study of Mus musculus with 8 samples.

Results

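The 10 genes described here encode the sarcomeric myosin chains of skeletal muscle and the kinase that acts on one of them: the developmental heavy chains Myh3 and Myh8, the adult fast heavy chains Myh1, Myh2 and Myh4, the slow heavy chain Myh7, the essential light chains Myl1 and Myl4, the regulatory light chain Mylpf and the light chain kinase Mylk2. They were chosen by name, and all 10 were among the 19244 genes of the count table that had at least 1 count. RNA was sequenced from muscle stem cells (MuSCs), which had been sorted from mice labelled as old and cultured for 72 hours in growth medium. The study's methods describe its aged animals in general as wild-type C57BL/6JRj males of 23 to 25 months, and the labels give these libraries no age in months. The cells received either vehicle (1% DMSO per the labels) or the combination of nicotinamide and pyridoxine (NAM/PN), labelled as 1 mM with no value for each vitamin. The 8 mice were combined into 4 pools of 2 mice, and each pool was cultured in both conditions, so that libraries with the same replicate number came from the same mice and no value belongs to a single animal.

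Muscle myosin is the motor of the thick filament, built from a pair of heavy chains that split ATP and pull on actin, each carrying an essential and a regulatory light chain at its neck. Myoblasts that leave the cell cycle and fuse switch these genes on together, beginning with the embryonic and neonatal heavy chains and moving to adult fast or slow isoforms as fibers mature. Proliferating muscle stem cells use nonmuscle myosin II in their place, and the sarcomeric chains are therefore widely used as markers of terminal differentiation. Whether NAM/PN changed these markers in aged MuSCs, and whether it changed the balance of developmental and adult isoforms, were the questions put to the data.

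Library totals lay between 6472484 and 10163101 counts. Levels are given as CPM, the counts scaled to a common library size after TMM normalization. A floor of 3 counts, used as the level that a library with 0 counts still allows, stood at 0.28 to 0.457 CPM. Any count above 0 is reported as counted. Reads come from transcript ends at the 3′ side, and levels were not scaled to length. The myogenic identity of the cells was visible in every library, as the 10 markers of MuSCs and myoblasts, Pax7 and Myod1 among them, summed to 2937 to 3369 CPM in vehicle libraries and to 2353 to 2947 CPM in NAM/PN libraries. Myod1 had the most counts of the 10, whereas Chodl and Calcr, which were not tested, had 47 and 12 counts in all libraries together. Of the 8 that were tested, 7 had a fitted change below 0, 0 were called by edgeR or DESeq2, 1 was called by voomWithQualityWeights, and 2 had an unadjusted p under 0.05 in the edgeR test.

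Of the 6 heavy chain genes, 5 lie side by side on chromosome 11 of GRCm38, in the order Myh3, Myh2, Myh1, Myh4 and Myh8, in a cluster of 293.3 kb that ends with Myh13. Myh7 lies on chromosome 14 from 54970684 to 54994626. RefSeq promoters (GRCm38.p6, from 250 bases before to 50 bases after a start site) were found for 9 of the 10 members, and Mylk2 is named only. The windows of 4 neighbors, Myh2, Myh1, Myh4 and Myh8, shared a stretch of 14 bases, TTCTAATTATATCC, which was held by the windows of these 4 genes and by no other among 32851 promoters. They are printed here because 3 of them, an adult fast gene with many counts, an adult fast gene with nearly none and the neonatal gene, also share one word that matches the MEF2 motif, TTATTTATAG, which 38 of the 32851 promoters hold. Capitals mark the shared stretch and the MEF2 match in each 104-base window, on the plus strand and 5′ to 3′.
Myh2, chr11:67170827-67170930: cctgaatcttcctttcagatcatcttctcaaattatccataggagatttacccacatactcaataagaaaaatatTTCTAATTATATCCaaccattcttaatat
Myh1, chr11:67199867-67199970: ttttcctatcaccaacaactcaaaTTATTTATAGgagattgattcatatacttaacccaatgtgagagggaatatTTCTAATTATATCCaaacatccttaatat
Myh4, chr11:67237579-67237682: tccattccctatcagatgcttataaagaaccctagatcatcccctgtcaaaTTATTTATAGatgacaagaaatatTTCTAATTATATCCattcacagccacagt
Myh8, chr11:67276995-67277098: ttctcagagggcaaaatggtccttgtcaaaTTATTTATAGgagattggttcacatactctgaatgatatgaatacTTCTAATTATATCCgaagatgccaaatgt

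The heavy chain and the light chain with the most counts, Myh3 and Mylpf, hold neither of these words. Their 250 bases before the start site are shown because these genes carried most of the counts described in the following paragraphs, with the E-box (CANNTG, the core word bound by myogenic factors such as MYOD and myogenin) in capitals, both on the plus strand.
Myh3, chr11:67078050-67078299: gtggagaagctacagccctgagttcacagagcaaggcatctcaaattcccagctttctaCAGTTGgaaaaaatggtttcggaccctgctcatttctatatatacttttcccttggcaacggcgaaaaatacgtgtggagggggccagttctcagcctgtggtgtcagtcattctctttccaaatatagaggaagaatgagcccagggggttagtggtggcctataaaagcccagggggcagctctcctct
Mylpf, chr7:127211358-127211607: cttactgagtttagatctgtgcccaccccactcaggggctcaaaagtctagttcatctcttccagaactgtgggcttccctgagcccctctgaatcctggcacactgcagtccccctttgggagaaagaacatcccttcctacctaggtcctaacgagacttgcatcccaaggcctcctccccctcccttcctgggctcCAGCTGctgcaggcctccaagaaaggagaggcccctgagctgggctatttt

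An E-box was common in general, as 72.3% of all promoters of this length held at least 1, whereas its form CAGCTG, found in Mylpf, Myl1 and Myh4, was held by 16.3% and a MEF2 match by 3.19%. Both strands were searched, and a MEF2 match can overlap a TATAAA word on the other strand, as in Myh8, Myh1 and Myh4. The windows of Myh2 and Myl4 held no E-box and no MEF2 match, which says only that these letters are not in these 300 bases. For Myh4 the RefSeq start site lies 217 bases from the nearest GENCODE transcript start, and for Myl1 87 bases, while for Myh3, Myh8, Myh2, Myl4 and Mylpf both are the same base.

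**Figure D1:**
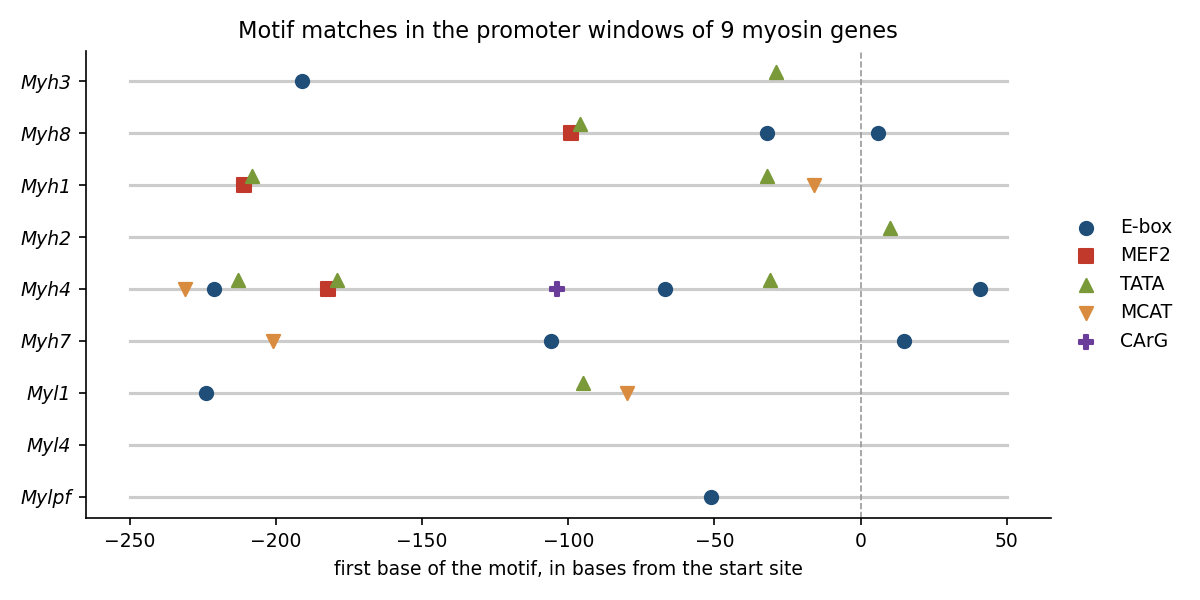
Motif matches in the RefSeq promoter windows of 9 myosin genes (Mylk2 had none in the table; the first of 2 Myh7 windows is drawn). The x axis gives the first base of each match in bases from the start site, the dashed line the start site, and the symbols the motif, with E-box including CAGCTG; MEF2 matches are seen in Myh8, Myh1 and Myh4.

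Sarcomeric myosin chains were lower with NAM/PN in aged MuSCs. Of the 10 genes, 7 had enough counts to be tested, and 5 of them passed the threshold, all lower with NAM/PN: the embryonic heavy chain Myh3, the adult fast heavy chain Myh1, both essential light chains and the regulatory light chain Mylpf. In edgeR's quasi-likelihood test, p-values were adjusted by Benjamini-Hochberg across 12060 genes and called under 0.05. The test called 1.28% of all tested genes in either direction and 0.995% as lower. In the same 5 genes every vehicle library was above every NAM/PN library, which was the case for 4.42% of tested genes. The median log2 fold change of the 7 tested members was -2.59, against -0.0022 over all tested genes. A fit with a replicate block for the pool also called 5 members. These are bulk libraries, in which fewer differentiated cells and less myosin RNA per cell cannot be told apart.

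**Figure D2:**
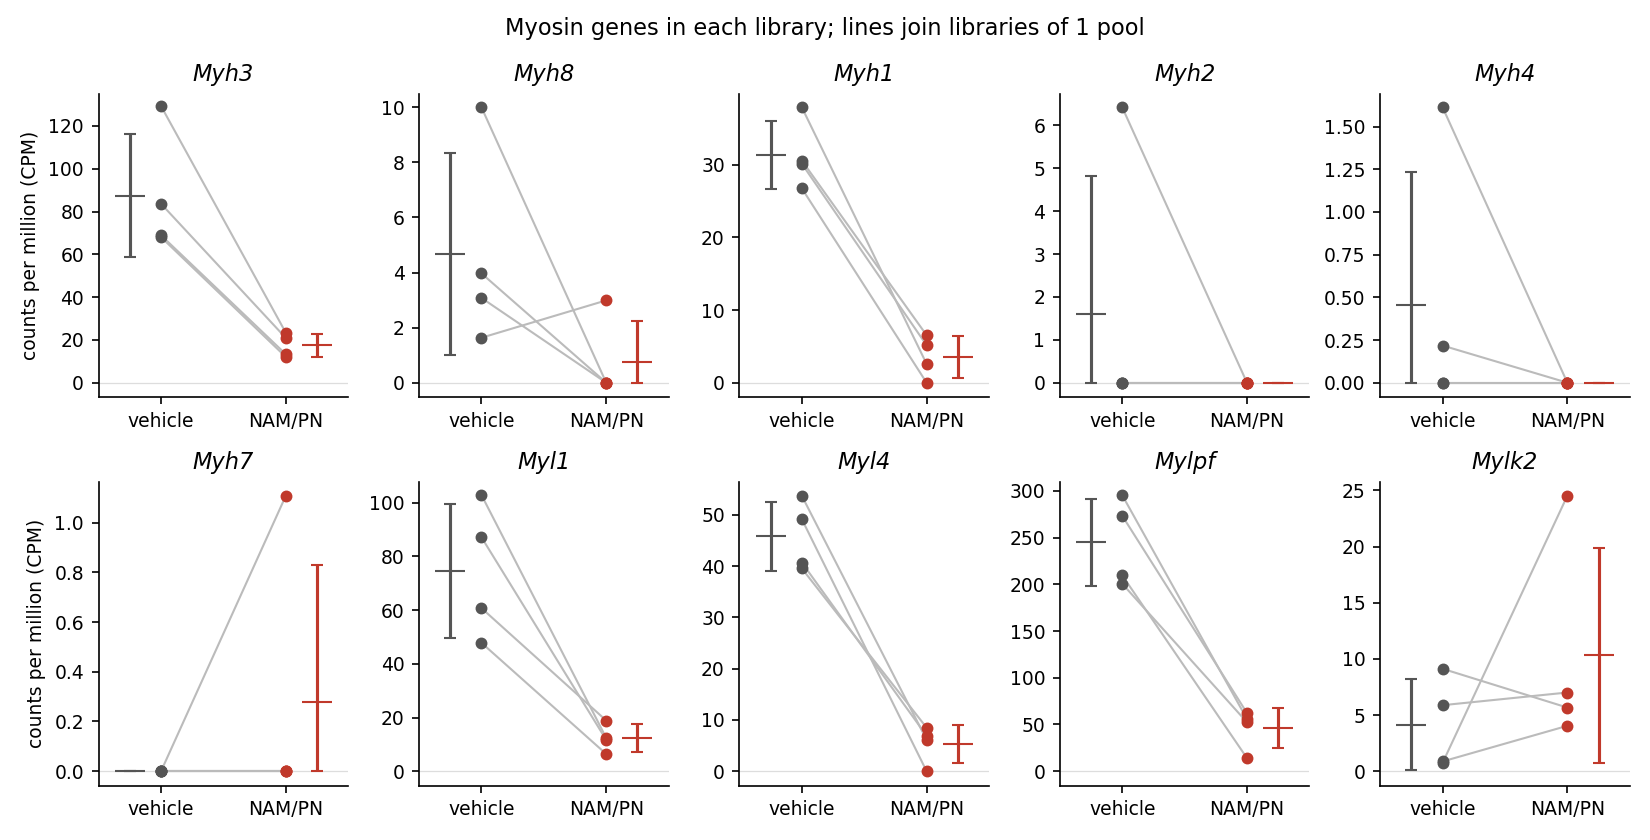
Level of each of the 10 myosin genes in CPM on the y axis (a linear scale of its own in each panel), with vehicle in gray and NAM/PN in red. Points are libraries, gray lines join the libraries of 1 pool, and the bars beside the points give the mean ± SD (n = 4), with the lower bar ended at 0; Myh3, Myh1, Myl1, Myl4 and Mylpf show no overlap between conditions, whereas Myh8 and Mylk2 do.

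Myh3, the embryonic heavy chain (chromosome 11 from 67078300 to 67102291), was the heavy chain with the most counts in 8 of 8 libraries. It had 582, 674, 551 and 1188 counts in vehicle replicates 1 to 4, and 108, 150, 79 and 250 counts in NAM/PN replicates 1 to 4. Each pool therefore lost most of its Myh3 counts, and the pool with the highest level in vehicle, pool 4, was also the highest with NAM/PN. Expression was 87.5 ± 28.8 CPM in vehicle against 17.4 ± 5.58 CPM in NAM/PN libraries (SD, n = 4 each), which is 5.03-fold lower. The log2 fold change reached -2.33 ± 0.30 (SE, edgeR adjusted p = 0.000232), and Myh3 ranked 12 among all tested genes by p. None of the 50-base windows in the last 500 bases of its transcript occurs in another gene. Where in the transcript its reads fell was not tested.

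Myh8, the neonatal heavy chain, had fewer counts than Myh3 in every library and was not called. Its counts were 26, 32, 81 and 15 with vehicle, and 0, 0, 0 and 32 with NAM/PN. Pools 1 to 3 went from counts to 0, and pool 4 from 15 to 32 counts, so the conditions overlapped. The log2 fold change was -2.59 with a standard error of 1.73 (adjusted p = 0.77 in the edgeR test), which is also the median of the 7 members. With pool 3 left out the fitted value was -1.51. With pool 4 left out the NAM/PN libraries were all at 0 and the fitted value, which then depends on the prior count, was -8.46. With all pools kept it was -5.94 with the replicate block and -4.95 with voomWithQualityWeights, so neither a fall nor its size was settled.

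Among the adult fast heavy chains only Myh1 (type IIX, chromosome 11 from 67200052 to 67224575) was measured in every vehicle library. It had 226, 243, 307 and 281 counts in vehicle replicates 1 to 4 and 0, 37, 17 and 70 in NAM/PN replicates 1 to 4. The lowest vehicle library lay far above the highest NAM/PN library, and NAM/PN replicate 1 had none, which at its depth allows up to 0.369 CPM. Expression was 31.4 ± 4.70 CPM in vehicle against 3.57 ± 2.89 CPM in NAM/PN libraries (SD, n = 4 each), or 8.78-fold lower on these means. The log2 fold change of Myh1 reached -3.12 ± 0.70 (SE, edgeR adjusted p = 0.0257), and it was -4.63 with voomWithQualityWeights. Its call was the least stable of the 5: it was lost on leaving out any single vehicle library, NAM/PN replicate 2 or 3, or pool 2, 3 or 4, with adjusted p between 0.0583 and 0.202 in these edgeR fits and log2 fold changes that stayed between -3.62 and -2.90.

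Over the last 200 bases, Myh1 is the called member whose sequence is least its own. Of the 50-base windows in its last 200 bases, 28.5% occur on the same strand in Myh2, Myh4 or Myh8, and 100% occur on the opposite strand in the antisense genes Myhas or 9430073C21Rik. Myhas had 0 counts in all libraries. 9430073C21Rik, which overlaps Myh2, had 36 counts in vehicle replicate 1, 16 in vehicle replicate 4 and 0 in the other libraries. How much of the Myh1 count came from its neighbors was not tested, and the strand setting of the counting is not given in the sources used here.

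Myh2 (type IIA), Myh4 (type IIB) and Myh7 (slow) were each counted in 1 or 2 libraries and did not pass the filter on low counts. Without the filter none was called by edgeR (adjusted p = 0.366 for each), and 1 of them, Myh2, had an unadjusted p under 0.05. Myh2 had 52 counts in vehicle replicate 3 and 0 in the other 7 libraries. Myh4 had 13 counts in vehicle replicate 2 and 2 in vehicle replicate 4, and 0 elsewhere. Myh7 was counted in NAM/PN replicate 1 only, with 9 counts. None of the 3 genes was thus seen in more than 2 libraries of a condition, and the 2 counts of Myh4 in vehicle replicate 4 are below the floor of 3 counts, so a level of that size could have been missed in the other libraries. Of the windows in the last 200 bases, 13.2% for Myh2, 7.28% for Myh4 and 70.9% for Myh7 occur on the same strand in another heavy chain gene, which for Myh7 is the cardiac gene Myh6, listed at 0 counts in all libraries.

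All 3 light chains were called as lower. Mylpf, the regulatory light chain of fast fibers (chromosome 7 from 127208890 to 127214298), had the most counts of all members in 8 of 8 libraries. Its counts were 1771, 2382, 1625 and 2513 in vehicle replicates 1 to 4, and 114, 401, 344 and 667 in NAM/PN replicates 1 to 4. NAM/PN replicate 1 was the lowest library by a wide margin, and the other 3 lay close together at 52.4 to 62.3 CPM. Expression was 245 ± 46.8 CPM in vehicle against 46.2 ± 21.8 CPM in NAM/PN libraries (SD, n = 4 each), which is 5.31-fold lower, and the fitted log2 change was -2.41 ± 0.32 (SE, edgeR adjusted p = 0.000318).

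Myl1, the essential light chain of adult fast fibers (chromosome 1 from 66924295 to 66945404), had 404, 829, 492 and 801 counts with vehicle and 52, 89, 124 and 125 with NAM/PN. Its fall was seen in all 4 pools, from -1.67 in pool 3 to -3.03 in pool 2 as log2 ratios of CPM. Expression was 74.7 ± 24.9 CPM in vehicle against 12.3 ± 5.12 CPM in NAM/PN libraries (SD, n = 4 each). The fitted log2 change was -2.60 ± 0.34 (SE, edgeR adjusted p = 0.000303). The gene makes a long and a short light chain, known as MLC1 and MLC3, from separate promoters. Of its 5 coding transcripts in GENCODE, 4 have identical windows at the 3′ end, so these 3′ counts do not separate the pair. The pseudogene Mylf-ps, which shares 20% of the windows in the last 500 bases of Myl1 and 0% of those in the last 200, had 127 counts in all libraries together.

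Myl4, the essential light chain of embryonic muscle and of the atrium (chromosome 11 from 104550663 to 104595753), had 334, 433, 398 and 374 counts with vehicle and 69, 44, 0 and 74 with NAM/PN. The vehicle libraries lay close together, and the 0 in NAM/PN replicate 3, which allows up to 0.457 CPM, stood beside 124 counts of Myl1 in the same library. Expression was 45.8 ± 6.81 CPM in vehicle against 5.38 ± 3.72 CPM in NAM/PN libraries (SD, n = 4 each). The fitted log2 change was -3.07 ± 0.62 (SE, edgeR adjusted p = 0.0124), and it was -4.36 with voomWithQualityWeights. DESeq2, run on the same genes, gave an adjusted p of 0.0635 for Myl4, and the edgeR call was also lost on leaving out vehicle replicate 2 or 4 or pool 1, 2 or 4, with adjusted p between 0.0504 and 0.20.

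Mylk2, the skeletal muscle kinase that phosphorylates the regulatory light chain, was not called. It had 77, 7, 6 and 54 counts with vehicle and 46, 29, 161 and 75 with NAM/PN. It was higher with NAM/PN in 3 of 4 pools, the conditions overlapped, and NAM/PN replicate 3 stood apart at 24.5 CPM against 4.04 to 7.0 CPM in the other 3. The log2 fold change reached 1.30 ± 0.93 (SE, edgeR adjusted p = 0.788), and with pool 3 left out it was 0.07.

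**Figure D3:**
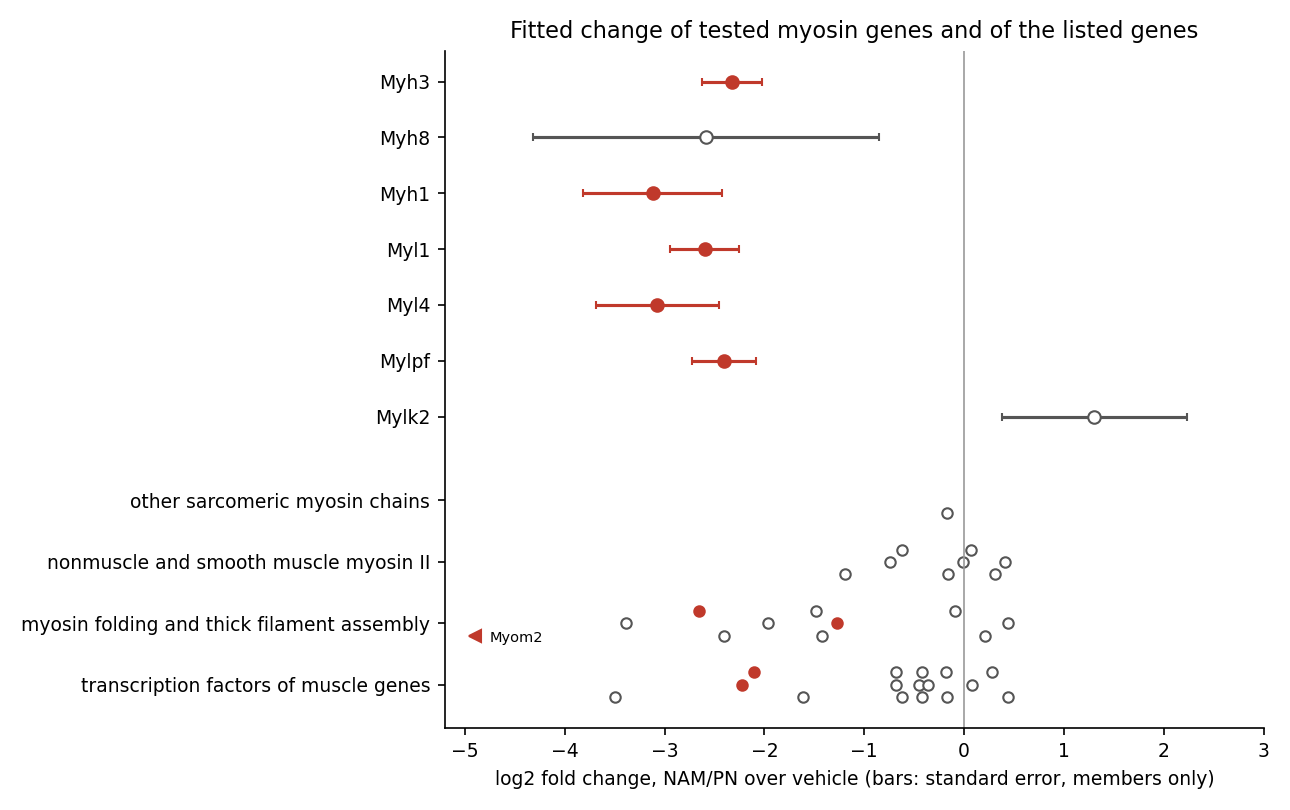
Fitted log2 fold change of NAM/PN over vehicle on the x axis for the 7 tested myosin genes (with standard error) and, in the lower rows, for each tested gene of 4 lists of related genes. Filled red points passed an adjusted p of 0.05 in the edgeR test, open gray points did not, and the triangle marks Myom2, which had 0 counts in every NAM/PN library and a fitted value beyond the axis. Myosin chains lie between -3.12 and -2.33, Mylk2 above 0, and the genes of the nonmuscle and smooth muscle list between -1.20 (Myl9) and 0.41 (Myh10).

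The balance of isoforms was compared within each library, where no normalization between libraries enters. Myh3 and Myh8 together took 72.9%, 73.4%, 63.8% and 81.0% of the heavy chain counts in vehicle replicates 1 to 4, and 92.3%, 80.2%, 82.3% and 80.1% in NAM/PN replicates 1 to 4. Developmental isoforms made up the larger part of the counts in every library. The treatment of reads that map to several genes is not given in the sources used here, and how far the shared 3′ end of Myh1 lowered or raised its part of the counts was not tested. The exact 95% binomial intervals, which cover counting error only, ran from 60.7% to 66.8% in vehicle replicate 3, with 991 heavy chain counts, and from 73.2% to 89.3% in NAM/PN replicate 3, with 96. The mean was 72.8 ± 7.03% (SD, n = 4) with vehicle and 83.7 ± 5.81% (SD, n = 4) with NAM/PN, a difference of 10.98 percentage points (two-sided exact permutation test over 70 assignments, p = 0.0857, adjusted over 3 composition measures p = 0.257). The share was higher with NAM/PN in 3 of 4 pools and slightly lower in pool 4, and the difference did not pass the test. The smallest p that this unpaired test allows with 4 against 4 libraries is 0.0286, which for 1 of 3 measures alone becomes 0.0857 after adjustment. The test could therefore not have called a shift in 1 measure by itself, and the missing call does not show that the balance was the same. It ignores that libraries are paired by pool, and the paired exact test gave p = 0.25 for the same share. In NAM/PN replicate 1, the rest of the heavy chain counts were the 9 of Myh7, as Myh1 was at 0.

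The measures with light chains were not called either, under the same limit. Myl4 took between 31.8% and 45.3% of the essential light chain counts in the vehicle libraries and 57.0%, 33.1%, 0% and 37.2% in NAM/PN replicates 1 to 4. The NAM/PN libraries thus lay on both sides of the vehicle range, with a difference in means of -7.21 percentage points (exact permutation test, p = 0.714, adjusted p = 0.943). Without NAM/PN replicate 3 the difference was 3.40 points. Light chain counts exceeded heavy chain counts in every library, by a log2 ratio of 1.54 ± 0.28 (SD, n = 4) with vehicle and 1.53 ± 0.55 (SD, n = 4) with NAM/PN (difference -0.02, exact permutation test, p = 0.943, adjusted p = 0.943). Summed over the 6 heavy chains, levels ran from 98.8 to 162 CPM with vehicle and from 14.4 to 32.9 CPM with NAM/PN, and summed over the 3 light chains from 297 to 452 CPM and from 28.9 to 80.9 CPM.

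**Figure D4:**
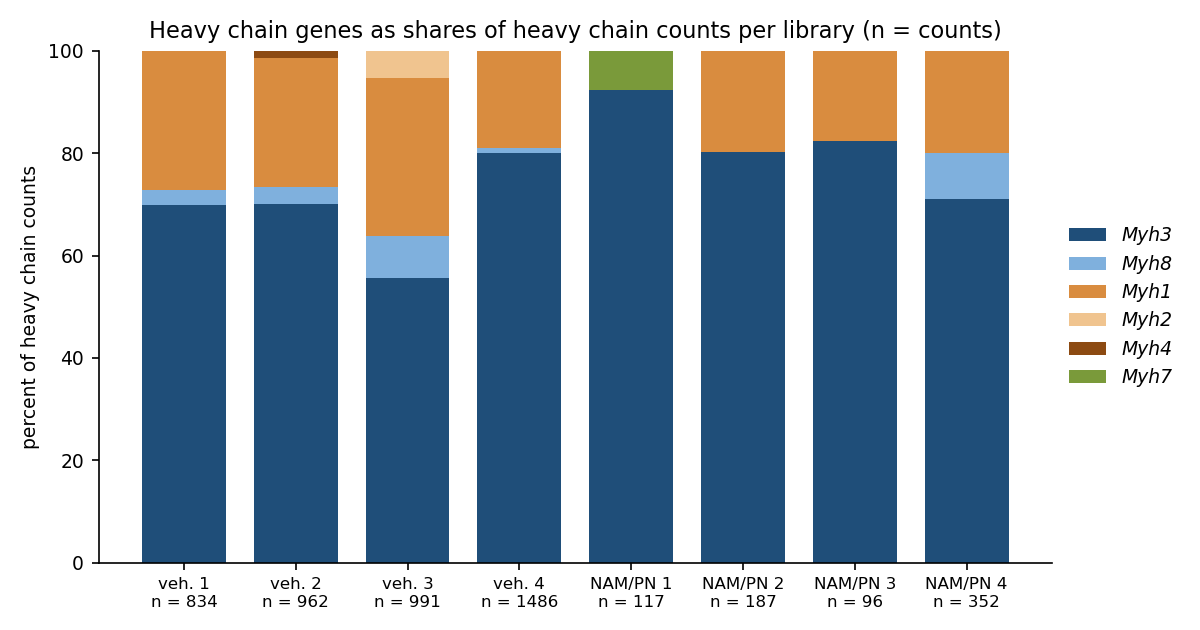
Share of each heavy chain gene in the heavy chain counts of each library, in percent on the y axis, with the number of heavy chain counts under each bar (vehicle replicates 1 to 4, then NAM/PN replicates 1 to 4). Myh3 takes the largest share in all 8 libraries, from 55.6% in vehicle replicate 3 to 92.3% in NAM/PN replicate 1, and Myh2, Myh4 and Myh7 each appear in 1 or 2 libraries.

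Nonmuscle myosins, which MuSCs use while they divide, were measured in the same libraries. In the list of nonmuscle and smooth muscle myosin II, 8 of 10 genes were tested, 0 were called by edgeR or DESeq2, 1 had an unadjusted p under 0.05, and the median log2 fold change was -0.09. Myh9, the main nonmuscle heavy chain, was at 714 ± 126 CPM in vehicle against 640 ± 105 CPM in NAM/PN libraries (SD, n = 4 each), and the regulatory light chain Myl12a at 865 ± 54.6 CPM and 905 ± 94.3 CPM. The smallest p in the list belonged to the regulatory light chain Myl9, at 28.5 ± 8.90 CPM in vehicle against 12.5 ± 8.08 CPM in NAM/PN libraries (log2 fold change -1.20, adjusted p = 0.322 in the edgeR test). Myh11, the smooth muscle heavy chain, had 0 counts in all libraries. Of the other sarcomeric chains and kinases, which include the cardiac genes Myh6, Myl2, Myl3 and Myl7, 3 of 10 had any count and 1 was tested, the kinase Mylk4, with a log2 fold change of -0.17 (adjusted p = 0.99) that turned to 0.32 with the replicate block.

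Among genes for myosin folding and thick filament assembly, 11 of 13 were tested, 3 were called, all lower with NAM/PN, and the median was -1.49. Smyd1, a muscle methyltransferase required for thick filament assembly, was at 98.7 ± 9.04 CPM in vehicle against 40.8 ± 14.1 CPM in NAM/PN libraries (SD, n = 4 each; log2 fold change -1.27, adjusted p = 0.00999 in the edgeR test, with the call lost on leaving out NAM/PN replicate 1, pool 1, 2 or 3, or the 2 NAM/PN libraries with high Col1a1, replicates 1 and 2). Mybpc1, the slow myosin-binding protein C, fell with a log2 fold change of -2.66 (adjusted p = 0.0253, with the call lost on leaving out vehicle replicate 2, 3 or 4, NAM/PN replicate 1 or 3, or pool 1, 3 or 4, and in the robust fit). Its log2 fold change was -3.61 without NAM/PN replicate 2 and -4.16 without NAM/PN replicates 1 and 2, with the call kept in both. Myom2, an M-band protein that ties thick filaments together, had 13, 28, 91 and 95 counts with vehicle and 0 in every NAM/PN library (adjusted p = 0.0422), and this call was lost with the replicate block (adjusted p = 0.155), with voomWithQualityWeights (adjusted p = 0.0842), in each of the 12 fits that left out a library or a pool, and without the 2 libraries with high Col1a1. Conversely Ttn, the titin gene, and Mybph, a myosin-binding protein, were called with the block (adjusted p = 0.00079 and 0.0332) and not in the test without it (adjusted p = 0.0736 and 0.153), although both were also called without the filter on low counts (adjusted p = 1.43e-13 and 0.000141) and Ttn on leaving out vehicle replicate 1 (adjusted p = 0.0204). The general chaperones Hsp90aa1 and Hsp90ab1 had log2 fold changes of -0.09 and 0.21 and were not called, and Unc45b, the muscle chaperone of myosin, had a log2 fold change of -1.96 without a call (adjusted p = 0.504).

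Of 18 transcription factors of muscle genes, 16 were tested and 2 were called by edgeR, both lower with NAM/PN, with a median of -0.44. Myog (myogenin), the factor that opens terminal differentiation, was at 680, 1042, 566 and 1428 CPM in vehicle replicates 1 to 4 and at 108, 237, 173 and 277 CPM in NAM/PN replicates 1 to 4. Its conditions did not overlap, and the order of the pools within a condition ran from pool 4 at the top in both. The log2 fold change of Myog reached -2.22 ± 0.29 (SE, edgeR adjusted p = 0.000232). Mef2c, which binds the MEF2 motif, fell from 39.98 ± 17.4 to 9.23 ± 4.24 CPM (SD, n = 4 each), with a log2 fold change of -2.11 (adjusted p = 0.0125), and lost its call when vehicle replicate 2 or 3, NAM/PN replicate 1, pool 1, 2 or 3, or the 2 libraries with high Col1a1 were left out. Myod1 was at 1366 ± 175 CPM in vehicle against 1201 ± 134 CPM in NAM/PN libraries (log2 fold change -0.19, adjusted p = 0.824).

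Genes with the pattern most like the members' mean were named by the correlation of log2 CPM over the 8 libraries, among 9207 genes. The mean was taken over the 7 tested members, with the kinase Mylk2 included, whose own r with it was -0.50. Vamp5, Hspb6, Rnaseh2c, Dlgap4 and Cacng1 came first, with Pearson r between 0.975 and 0.984. These values carry the difference between the 2 conditions, which the libraries share. After each condition's mean was subtracted, other genes came first, namely C2cd2l, Mrpl12, Slc38a7, Sspn and Aes, with r between 0.965 and 0.978, and these 5 had log2 fold changes between 0.05 and 0.65. On this measure the members' own r with their mean ran from -0.02 for Mylk2 to 0.85 for Myh1. The named genes are the highest of 9207 over 8 libraries, and how high r would reach by chance was not tested.

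Markers of other cell types were read beside these falls. Of 8 endothelial markers 4 had counts, with sums of 3.46 to 19.4 CPM with vehicle and 9.85 to 29.5 CPM with NAM/PN and Cldn5, Emcn, Tie1 and Flt1 at 0. Leukocyte markers summed to 0.979 to 7.58 and 3.50 to 7.14 CPM, with Ptprc, Itgam, Adgre1 and Csf1r at 0, and Schwann cell markers to 1.61 to 12.4 and 2.83 to 12.6 CPM. The 4 globin genes were at 0, and of 4 cardiomyocyte markers 1, Tnni3, had counts, at up to 4.74 CPM. For smooth muscle and mural cells, 6 of 7 markers had counts, with sums of 286 to 609 CPM with vehicle and 95.9 to 156 CPM with NAM/PN and Myh11 at 0. Acta2 had the most counts of these markers in every library and fell with a log2 fold change of -2.38 (adjusted p = 0.000147 in the edgeR test). Tagln, Rgs5 and Pdgfrb had only 42, 32 and 27 counts in all libraries together. Cspg4 and Notch3 were not called (adjusted p = 0.817 and 0.779 in the same test), so the fall of the sum was mainly that of Acta2. For fibro-adipogenic cells, 3 of 6 markers had counts, with sums of 1.74 to 41.2 and 3.27 to 1038 CPM, Pdgfra, Lum and Dpt at 0 and Dcn at 2 counts in all. The upper value came from Col1a1, at 486 and 1032 CPM in NAM/PN replicates 1 and 2 and at 1.74 to 41.2 CPM in the other 6 libraries. Without these 2 libraries 4 members were called, with log2 fold changes of -2.30 for Myh3, -2.76 for Myh1, -2.30 for Myl1 and -2.09 for Mylpf, and Myl4 had a log2 fold change of -3.65 with an adjusted p of 0.062 in the same edgeR test. Smyd1 and Mef2c then had log2 fold changes of -1.28 and -2.29 (adjusted p = 0.0899 and 0.0827), no smaller than with all libraries, and Myom2 had an adjusted p of 0.15.

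**Figure D5:**
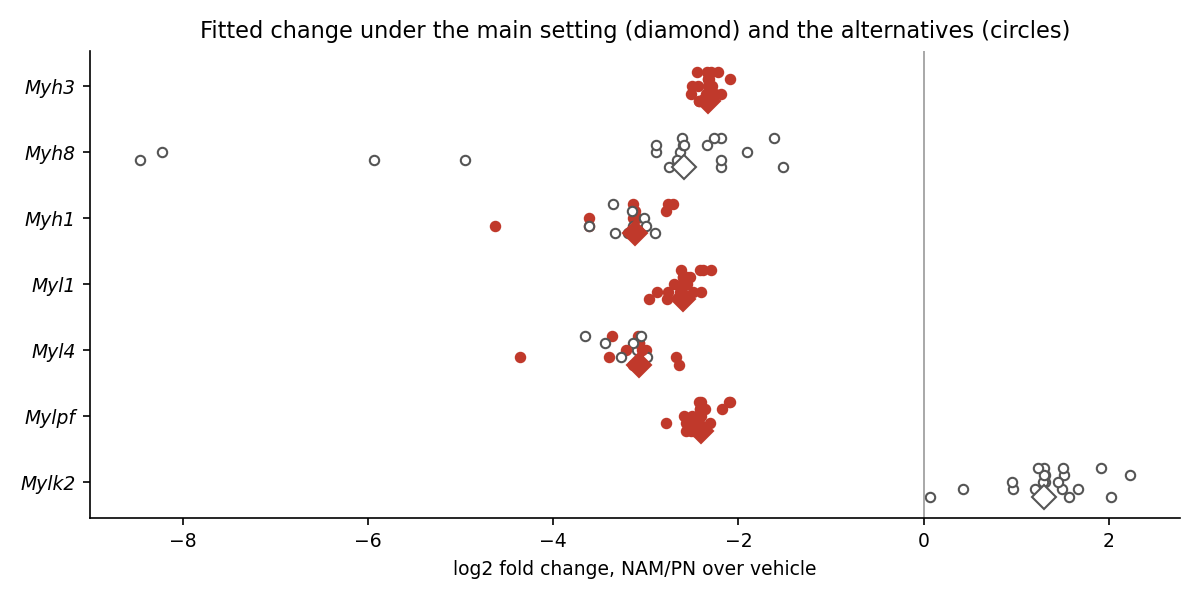
Log2 fold change of the 7 tested myosin genes on the x axis under the main setting (diamonds) and under 21 alternatives (circles), filled red where the adjusted p was under 0.05. Myh3, Myl1 and Mylpf are filled under all of them, with values from -2.97 to -2.09, Myh1 and Myl4 under part of them, and Myh8 and Mylk2 under none.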

How the data were processed

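The deposited values are raw, unnormalized counts per gene of 8 libraries, 4 from vehicle and 4 from NAM/PN cultures. A QuantSeq kit that reads transcripts from the 3′ side was used, and per the study's methods reads were aligned to GRCm38 with RNASTAR and counted with htseq-count (HTSeq 2.16.2 per the labels). Gene names and positions came from GENCODE M21, which held 55141 of the identifiers. Where a symbol had several identifiers, the one with the most counts was taken.

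The tools were edgeR 4.0.16, DESeq2 1.42.0 and limma 3.58.1 under R 4.3.3, with matplotlib 3.10.9 (Python 3.11.15) for plots. Of 19244 genes with a count, 12060 passed filterByExpr (minimum count 10, minimum total 15). edgeR's quasi-likelihood test called 154 genes (34 higher, 120 lower) without a block. The study's methods give this test for mouse muscles and state none for the MuSC libraries. With the pool as a replicate block it called 156, of which 130 were shared. Libraries of the same pool come from the same mice, and their deviations correlated at -0.03 to 0.03 across genes. Log2 CPM used a prior count of 2. Floors and intervals cover counting error only. On simulated data for this comparison with 11369 tested genes, 65 of 100 genes changed 4-fold and 23 of 100 changed 2-fold were recovered, and 2 unchanged genes were called.

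The members and the lists were chosen with earlier results of these data known. All 10 members, the gene with the smallest p of each list, the marker genes and the 5 genes most like the members' mean (average log2 CPM of at least 3) are named by rule. Results for 1 of the lists and for 1 marker are not reported here. Mybpc1, Myom2, Mybph, Ttn, Unc45b, Hsp90aa1, Hsp90ab1, Mef2c, Myh9, Myl12a and the genes at 0 were named after their values were seen. Alternatives were the block, DESeq2, RLE factors, no filter, a robust fit, voomWithQualityWeights, thinning, leaving out the most counted gene, an adjusted p under 0.10, and each library and each pool left out.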

Additional observations from a re-analysis of the deposited data

Results flagged for a closer look

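Dixon's test at 95% for an extreme library marked 5 of the 26 groups of 4 libraries examined. The rate of about 1 in 20 that chance gives does not apply to 3 of them, Myh8, Myh2 and Myh7, since a single value beside 3 libraries at 0 is always marked. In 4 of them the counts of a gene in 1 condition came wholly or mostly from 1 library. Myh8 stood at 2.99 CPM in NAM/PN replicate 4 and at 0 in the other 3 NAM/PN libraries. Myh2 was at 6.42 CPM in vehicle replicate 3 and at 0 in the other 3 vehicle libraries. Myh4 was at 1.61 CPM in vehicle replicate 2 against 0 to 0.218 CPM in the others. Myh7 was at 1.11 CPM in NAM/PN replicate 1 and at 0 in the others. For Mylk2, NAM/PN replicate 3 reached 24.5 CPM against 4.04 to 7.0 CPM in the other NAM/PN libraries. No library of the called genes Myh3, Myh1, Myl1, Myl4 and Mylpf was marked.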

How the results depend on the processing

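Of the 5 called members, Myh3, Myl1 and Mylpf kept their call under all 21 alternatives, Myh1 under 12 and Myl4 under 14, and no member changed direction. The number of called members was 3 to 5 when each library or pool was left out, with 3 without vehicle replicate 2 or 4 or pool 2 or 4. The number of called genes was 42 (without pool 2) to 177 in the same fits. It was 289 with DESeq2, 366 without the filter, 232 with voomWithQualityWeights, 244 at an adjusted p under 0.10 and 76 without the 2 NAM/PN libraries with high Col1a1, an alternative chosen after seeing the data. The pool as a replicate block gave 156 genes and 5 members, and changed the calls of Myom2, Ttn and Mybph named above. In the paired test of the composition measures, with a smallest possible exact p of 0.125, p was 0.25 for the developmental share and 0.875 for the other two. Leaving out libraries or pools gave differences of 7.98 to 14.9 percentage points for the developmental share, -15.6 to 5.30 for the Myl4 share and -0.33 to 0.17 for the log2 ratio of light to heavy chains. Without the libraries with high Col1a1 the Myl4 share differed by -20.4 points and the log2 ratio by 0.25. Mylk4, near 0, was 0.32 with the block, 0.015 with voomWithQualityWeights and -0.59 to 0.28 on leaving out libraries. The causes were not tested. Myh2, Myh4, Myh7, Myh8 and Mylk2 had at most 161 counts in a library, which limits the precision of their values, and what part counting error has in their spread was not tested.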
